A study of Arabidopsis thaliana with 4 samples.

Results

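The plastid genome of Arabidopsis thaliana encodes a small set of proteins of the photosynthetic complexes, the plastid ribosome and the plastid RNA polymerase, and their transcripts are described here in detached source leaves fed sucrose or sorbitol. Members were the probe sets of the Affymetrix ATH1 array, each a group of probes reporting 1 transcript, that the platform annotation gave to a single protein-coding gene of the plastid genome. The rule gave 69 probe sets, 1 per gene, of 22746 on the array besides controls. The plastid genome of the TAIR10.1 gene table held 84 protein-coding loci with 78 symbols, and 15 of these loci had no probe set of their own. The members comprised 33 genes of the photosystems, cytochrome b6f complex, ATP synthase and rubisco, 10 of the NDH complex, 15 of ribosomal proteins, 4 of the RNA polymerase and 7 others. The rule itself used annotation alone. All 69 passed the filter on dim probe sets, which lay at the 40th percentile of mean log2 intensity over the 4 arrays. It kept 13648 probe sets for testing. Because it used the mean, a member could pass while dim on some arrays.

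Steady-state RNA levels had been measured in wild-type Col-0 leaves on 4 arrays, 2 for sucrose-fed and 2 for sorbitol-fed leaves. Full-grown source leaves of non-flowering plants were cut at the end of a 14 h day (the night lasted 10 h), recut at the petiole in 2 mM MES buffer and kept in darkness for 13 h. The buffer held 100 mM sucrose in the one group and 100 mM sorbitol, at the same concentration, in the other. Both groups had therefore been detached and darkened, and leaves at the start of the incubation were not among the arrays. Whether replicates came from different plants or harvests is not stated in the labels, and p-values then cover only the array-to-array spread, which could be technical.

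Plastid genes are arranged in clusters, many of which are transcribed together and then cut into shorter RNAs. A bacterial-type polymerase, whose core subunits are the plastid genes rpoA, rpoB, rpoC1 and rpoC2, transcribes most photosynthesis genes, while a phage-type polymerase of nuclear origin transcribes others, the rpoB cluster among them. Most complexes of the chloroplast combine subunits of both genomes. Plastid mRNAs, like ribosomal RNAs, carry no stable poly(A) tail.

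The arrays differed by replicate number on controls as well as on plastid genes. The 25S ribosomal RNA control had an intensity of 1255.2 on sucrose 1 and 56.6 on sucrose 2, against 2163.2 on sorbitol 1 and 14.4 on sorbitol 2. The 5S control read 264.6 and 6.5 in sucrose, against 387.9 and 8.4 in sorbitol. Both ribosomal controls were thus far lower on the replicate 2 arrays than on the replicate 1 arrays. The 18 spiked controls had median log2 intensities of 7.11 and 6.08 in sucrose, against 7.31 and 6.66 in sorbitol. The 3′ minus 5′ log2 difference of the older GAPDH control was 1.43 and 0.20 in sucrose, against 1.85 and 1.44 in sorbitol, and that of the newer GAPDH control was 0.15 and -0.0074 in sucrose, against 0.044 and 0.33 in sorbitol. The older difference was lower on replicate 2 in both sugars, and the newer one in sucrose alone. The labels do not say what the replicate number stands for. Changes with sucrose are therefore also given within replicate 1 (sucrose 1 minus sorbitol 1) and within replicate 2 (sucrose 2 minus sorbitol 2). Of the leaf markers with a probe set, RCA, the activase of rubisco, read 1546.8 and 835.5 in sucrose, against 3833.5 and 3154.9 in sorbitol. The antenna gene LHCB4.1 read 2942.4 and 2184.1 in sucrose, against 5468.7 and 4768.2 in sorbitol, while the root gene PYK10 lay at 17.3 or below on every array.

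Plastid transcripts had a lower median in sucrose-fed leaves, but no single member passed the test. On replicate 1, 68 of 69 members (98.6%) were lower in sucrose, against 49.8% of all probe sets tested, the exception being ndhF with a log2 difference of 0.02. On replicate 2, 44 of 69 (63.8%) were lower, against 49.5% of all tested, and 24 were higher. The median log2 change of the members was -0.35, with -0.65 within replicate 1 and -0.28 within replicate 2, against 0.02, 0.00 and 0.01 over all probe sets tested. The spiked controls were also lower in sucrose, by a median log2 difference of -0.15 within replicate 1 and -0.52 within replicate 2. Both ribosomal RNA controls were lower on sucrose 1 than on sorbitol 1, while on replicate 2 the 25S control was higher in sucrose. The part of such array differences in the members' change was not tested. The members' median was 0.23 without sorbitol 1, 0.06 without sucrose 2, -0.61 without sucrose 1 and -1.05 without sorbitol 2, so its sign depended on which arrays were set against each other. In 43 members the sign was negative in both replicates, which is 62.3% against 34.9% of all tested, and in 0 members it was positive in both, against 35.6%. These shares are descriptions of 4 arrays, since members read on the same arrays are not replicates. In whole leaves, fewer cells of a type and less RNA per cell cannot be told apart.

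The members' share of the summed intensity of an array was 2.64% and 2.08% in sucrose, against 3.61% and 2.31% in sorbitol. Their median log2 intensity was 9.74 and 8.96 in sucrose, against 10.42 and 8.58 in sorbitol, so the order of the groups turned between the replicates. By limma's moderated test over all probe sets with Benjamini-Hochberg adjustment, 0 of 69 members were called at 0.05, with 0 higher, against 0.366% of all tested, and 0 lower, against 0.923%. In either direction 1.29% of all probe sets tested were called. At an unadjusted p under 0.05, 4 of 69 members (5.8%) passed, against 20.7% of all tested. Both sucrose values lay below both sorbitol values in 18 of 69 members (26.1%), close to the 26.2% over all tested, and above them in 0 members, against 26.1%.

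With the replicate number as a term in the fit, limma called 6 members lower in sucrose (8.7%, against 8.84% of all tested) and 1 higher, against 8.28%. The 6 were rps15, rpl33, rps18, rps2 and rps16, all genes of ribosomal proteins, and matK, an intron maturase. The member called higher was psaA, whose value on sorbitol 2 stands apart and is given with the photosystem genes. The share called lower was thus close to the background. None of the 6 was called without the replicate term, and how they divided between the classes was not tested. In rps15 the replicates were far apart, at 560.4 and 45.9 in sucrose, against 1072.0 and 113.3 in sorbitol.

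**Figure D1:**
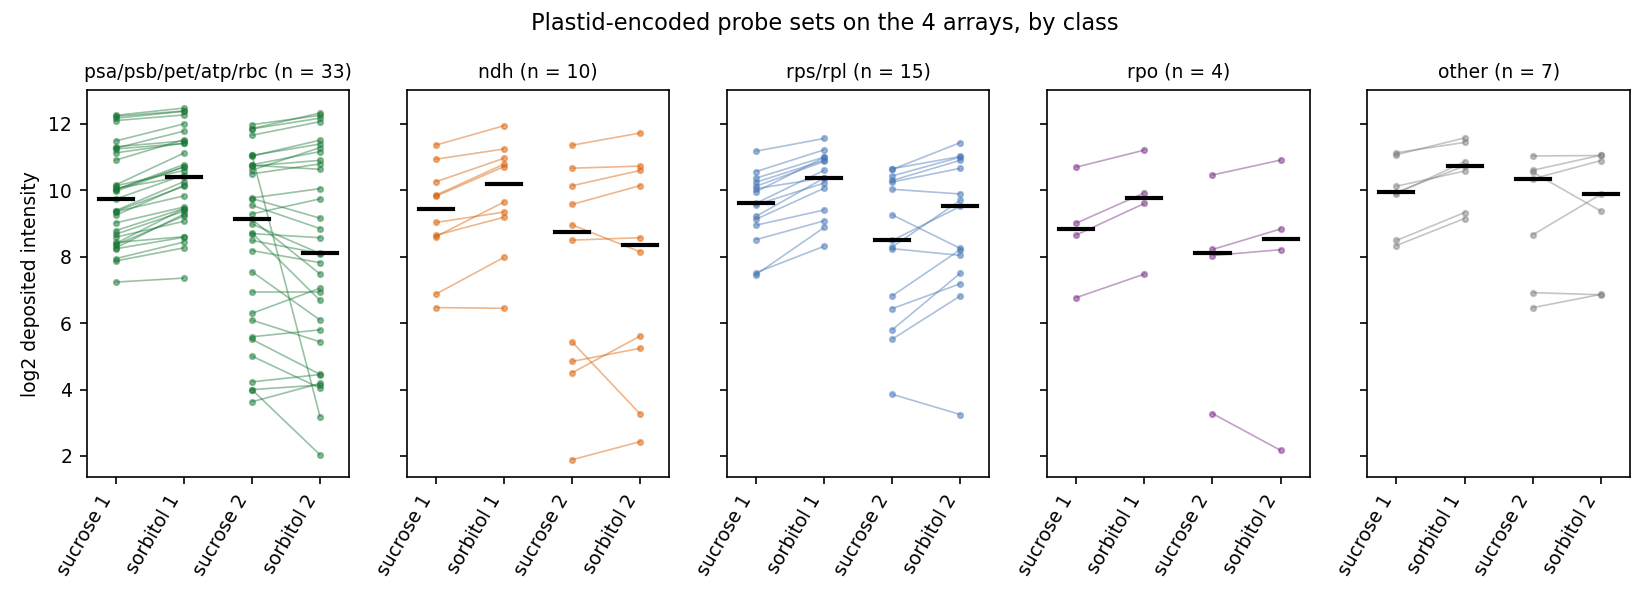
Log2 deposited intensity of the 69 plastid-encoded probe sets (vertical axis) on the 4 arrays (horizontal axis), 1 panel per functional class, with a line per gene and the class median. Many lines drop steeply on both replicate 2 arrays, while others in the same class stay nearly level.

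Photosystem and other photosynthesis genes made up 33 members. All 33 were lower in sucrose on replicate 1 and 17 on replicate 2, and none was called without the replicate term. The class median of the log2 change was -0.25, with -0.50 within replicate 1 and -0.14 within replicate 2. It was -0.037 after quantile normalisation, 0.71 without sorbitol 1 and 0.15 without sucrose 2. Both sucrose values lay below both sorbitol values in 5 of the 33, against 26.2% of all tested. These 5 were psbZ, psbK, petL, psbM and petA. The 6 cytochrome b6f genes were lower in sucrose on both replicates, with a median change of -0.33, whereas the 15 photosystem II genes had a median of -0.67 on replicate 1 and 0.65 on replicate 2.

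Among photosystem I genes, psaB encodes 1 of the core proteins that carry the reaction centre. It read 4398.8 and 3236.2 in sucrose, against 4944.7 and 4299.4 in sorbitol, a log2 change of -0.29 ± 0.30 (SE, n = 2 each). The groups overlapped, because sucrose 1 lay above sorbitol 2. Its partner in the core, psaA, read 2431.6 and 2159.3 in sucrose, against 2731.1 and 9.1 in sorbitol. The value on sorbitol 2 lay at the level of the Bacillus negative controls, whose highest intensity was 9.3, while the other 3 arrays lay within a narrow range. The change of psaA was 3.86 ± 2.33 (SE) with a limma adjusted p of 0.412, and the within-replicate values were -0.17 and 7.89. That positive change rested on sorbitol 2 alone. Without sorbitol 2 the fitted change was -0.25, the lowest of the values obtained by leaving out each array.

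In photosystem II, psbA encodes the D1 reaction centre protein. It read 2240.9 and 864.5 in sucrose, against 2740.9 and 573.6 in sorbitol, and its change was 0.15 ± 0.79 (SE). Sucrose was the lower on replicate 1 and the higher on replicate 2, and each replicate 2 array lay below each replicate 1 array. Wider gaps of that kind occurred in psbB, the gene of the CP47 inner antenna, at 441.6 and 32.2 in sucrose, against 700.9 and 16.5 in sorbitol. The CP43 antenna gene psbC read 1148.7 and 422.2 in sucrose, against 2226.9 and 103.0 in sorbitol. Its within-replicate changes of -0.96 and 2.04 show how far the photosystem II genes differed between the replicates. In contrast psbM, a small subunit near the dimer interface, read 4616.2 and 3718.3 in sucrose, against 5335.6 and 5154.9 in sorbitol, with no overlap and a change of -0.34 ± 0.28 (SE).

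The cytochrome b6f complex passes electrons between the photosystems. Its cytochrome b6 gene petB read 2873.4 and 2124.9 in sucrose, against 4102.9 and 2696.3 in sorbitol, with a change of -0.43 ± 0.34 (SE). The small-subunit gene petN, which had the change nearest to 0 among photosynthesis genes of 1 sign in both replicates, read 345.3 and 16.0 in sucrose, against 389.4 and 17.6 in sorbitol. Its change was -0.16 ± 1.79 (SE), so the spread between the arrays of a group was many times the difference between the sugars. The ATP synthase beta subunit gene atpB read 4906.2 and 4035.0 in sucrose, against 5710.1 and 4905.2 in sorbitol, a change of -0.25 ± 0.29 (SE). All 6 ATP synthase genes were lower on replicate 1 and 4 on replicate 2.

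The large subunit of rubisco, the enzyme that fixes carbon dioxide, is encoded by rbcL. It read 308.0 and 78.6 in sucrose, against 623.2 and 132.8 in sorbitol. The change of -0.89 ± 0.88 (SE) was the lowest in its class among genes of 1 sign in both replicates, at -1.02 and -0.76, and its limma adjusted p was 0.629. Within each replicate number the sucrose array was the dimmer, but sucrose 1 lay above sorbitol 2.

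The NDH complex returns electrons from photosystem I to the plastoquinone pool in cyclic electron flow. Of its 10 genes, 9 were lower in sucrose on replicate 1, 8 on replicate 2 and 7 on both, with a class median change of -0.42. That median was 0.52 without sorbitol 1 and 0.33 without sucrose 2. None was called. In 3 of the 10 (ndhJ, ndhA and ndhI) both sucrose values lay below both sorbitol values, against 26.2% of all tested. The membrane subunit gene ndhA read 905.4 and 1128.3 in sucrose, against 1682.1 and 1554.6 in sorbitol, a change of -0.68 ± 0.29 (SE) with a limma adjusted p of 0.261. Another subunit gene, ndhI, read 2636.0 and 2630.3 in sucrose, against 3951.5 and 3394.7 in sorbitol. In both genes the sugars were apart and the replicates of each sugar close.

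In ndhG and ndhH the replicates of each sugar were the farther apart. The subunit gene ndhG read 401.2 and 22.7 in sucrose, against 584.5 and 49.0 in sorbitol, and its change of -0.83 ± 1.57 (SE) was the most negative of the class. The subunit gene ndhH read 117.3 and 43.3 in sucrose, against 253.1 and 9.6 in sorbitol, with within-replicate changes of -1.11 and 2.17. These were the furthest apart of the within-replicate changes in the class. The smallest change of 1 sign belonged to ndhC, at 1964.5 and 1627.6 in sucrose, against 2430.4 and 1699.8 in sorbitol, a change of -0.18 ± 0.32 (SE). Its values overlapped between the sugars. The copies of ndhB in the inverted repeat share a probe set and were not members.

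Ribosomal protein genes had a median change of -0.61, with -0.66 within replicate 1 and -0.61 within replicate 2. It was the most negative of the 5 class medians over all 4 arrays, but within replicate 1 the polymerase genes, at -0.81, and the other genes, at -0.79, were lower. All 15 were lower in sucrose on replicate 1 and 11 on replicate 2. Both sucrose values lay below both sorbitol values in 8 of 15, against 26.2% of all tested. The median was negative with any 1 array left out, between -1.19 and -0.39. The 8 genes of the small subunit had a median of -0.85 and the 7 of the large subunit -0.58. The class difference itself was not tested. With each array centred on the median of all members, the ribosomal median was -0.47 and the photosynthesis median -0.10.

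The small-subunit gene rps18 came nearest to the threshold. It read 176.6 and 113.3 in sucrose, against 472.1 and 298.0 in sorbitol, so the brighter sucrose array lay below the dimmer sorbitol array. The change was -1.41 ± 0.39 (SE), almost equal in both replicates at -1.42 and -1.40, and its limma adjusted p of 0.126 was the lowest of all members. With the replicate term the adjusted p was 0.00836. The neighbouring large-subunit gene rpl33 read 782.8 and 314.8 in sucrose, against 1558.0 and 832.0 in sorbitol, a change of -1.20 ± 0.53 (SE).

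The large-subunit gene rpl16 read 994.6 and 1260.2 in sucrose, against 2035.7 and 1921.0 in sorbitol, with a change of -0.82 ± 0.29 (SE) and a limma adjusted p of 0.192. The small-subunit gene rps19 read 1516.4 and 1610.9 in sucrose, against 2388.3 and 2079.1 in sorbitol. Its change of -0.51 ± 0.28 (SE) was the smallest of 1 sign in the class, and neither gene's groups overlapped. By contrast rpl36, again of the large subunit, read 1322.4 and 614.1 in sucrose, against 2052.4 and 304.8 in sorbitol. Its within-replicate changes of -0.63 and 1.01 were the furthest apart among ribosomal genes.

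The plastid-encoded RNA polymerase genes were lower in sucrose in 4 of 4 cases on replicate 1 and 3 of 4 on replicate 2, with a median change of -0.52. The alpha subunit gene rpoA read 1663.9 and 1411.6 in sucrose, against 2374.2 and 1928.4 in sorbitol, with no overlap and a change of -0.48 ± 0.30 (SE). For rpoC1, which encodes part of the beta' subunit, the values were 517.3 and 298.2 in sucrose, against 970.7 and 457.6 in sorbitol, a change of -0.76 ± 0.47 (SE). The beta subunit gene rpoB read 109.1 and 9.7 in sucrose, against 178.4 and 4.5 in sorbitol. Its replicate 2 values were near or below the Bacillus controls, and its change of 0.20 ± 1.82 (SE) was negative with a pseudocount added.

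The remaining 7 members were all lower in sucrose on replicate 1 and 5 of 7 on replicate 2, with a median change of -0.48. The protease subunit gene clpP read 955.2 and 1301.1 in sucrose, against 1867.6 and 1907.6 in sorbitol, a change of -0.76 ± 0.30 (SE) with no overlap and a limma adjusted p of 0.231. The maturase gene matK, whose product acts in the splicing of plastid introns, read 986.1 and 404.4 in sucrose, against 1702.3 and 942.0 in sorbitol. Its change of -1.0 ± 0.52 (SE) had an adjusted p of 0.337 by limma, and of 0.0394 with the replicate term. The groups of matK overlapped, because sucrose 1 was brighter than sorbitol 2.

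The gene accD, for a subunit of the acetyl-CoA carboxylase of fatty acid synthesis, read 359.9 and 121.1 in sucrose, against 644.7 and 115.9 in sorbitol. The photosystem I assembly gene ycf4 read 1117.0 and 1499.2 in sucrose, against 1534.0 and 665.3 in sorbitol, with within-replicate changes of -0.46 and 1.17. Of all 7 it was the one whose within-replicate changes were furthest apart. The envelope protein gene cemA read 2249.9 and 2100.9 in sucrose, against 2788.0 and 2122.3 in sorbitol, a change of -0.16 ± 0.30 (SE).

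**Figure D2:**
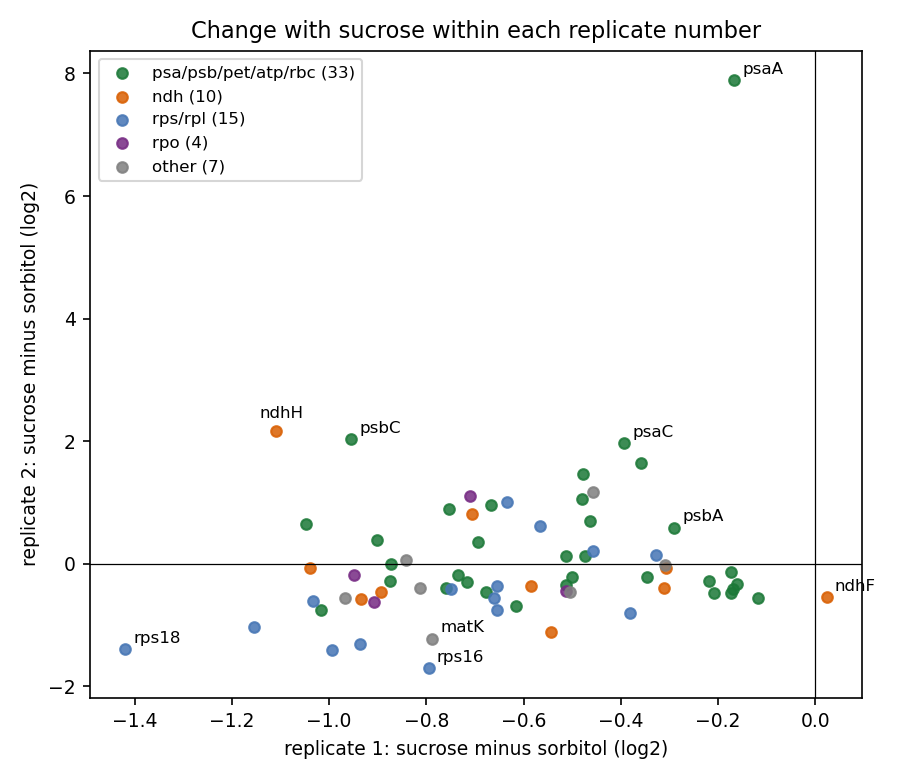
Log2 change with sucrose (sucrose minus sorbitol) within replicate 1 (horizontal axis) and within replicate 2 (vertical axis), with a point per plastid-encoded gene coloured by class. All points but ndhF lie left of 0, while on the vertical axis 44 lie below 0 and 24 above, and psaA stands alone at 7.89.

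More plastid transcripts differed by replicate number than by sugar in a limma fit with terms for both. In that fit 26 of 69 members (37.7%) were lower on replicate 2 than on replicate 1, against 1.25% of all probe sets tested. Higher members numbered 0, against 1.65%. For sugar the same fit called 6 lower, against 8.84%, and 1 higher, against 8.28%. The count of 26 became 7 with no filter on dim probe sets. With either term alone in the fit, 0 members were called. The 26 comprised 14 of 33 photosynthesis genes, 5 of 10 NDH genes, 4 of 15 ribosomal protein genes, 1 of 4 polymerase genes and 2 of 7 others. The median difference of replicate 2 minus replicate 1 over the members was -1.02, with -0.66 in sucrose and -1.21 in sorbitol, against -0.11 over all tested. In both sugars 57 of 69 members were lower on replicate 2, against 38.3% of all tested. Differences of at least 4-fold toward lower values on replicate 2 in both sugars occurred in 15 of 69 members (21.7%), against 0.169% of all tested. Among both the 26 and the 15, petN, rps14, petD, psaC, rpoB and ndhF read below the filter's cut-off of 18.6 on both replicate 2 arrays. Replicate 1 alone carried these genes past the filter, so their falls are not independent of it. The 15 were among 23 such probe sets of the 13648 tested, and 2 more of the 23 were annotated to genes of the plastid inverted repeat. The widest fall of the 23 was in 1 of the other 6, which had no single-gene match in the annotation used. It read below the highest Bacillus control on both replicate 2 arrays, so no size is given for it. The ribosomal RNA controls were dimmer on the same arrays, and their part in the result was not tested.

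Among the members the small-subunit gene rps14 fell most, reading 14.5 on sucrose 2 and 9.5 on sorbitol 2, against 366.4 on sucrose 1 and 542.3 on sorbitol 1. The log2 difference was -5.25, which is 38.0-fold lower, with a limma adjusted p of 3e-06. That fold is imprecise, because the value on sorbitol 2 lay barely above the highest Bacillus control, 9.3. The photosystem I gene psaC, which encodes the iron-sulphur subunit, read 16.0 on sucrose 2 and 4.1 on sorbitol 2, against 234.5 on sucrose 1 and 308.2 on sorbitol 1. The gene psbB was 24.1-fold lower, petN 21.9-fold, the NDH gene ndhE 17.7-fold and petG, of the cytochrome b6f complex, 16.8-fold. In psaC, psaA, rpoB and ndhF at least 1 array read at or below the Bacillus controls, so no fold is given for them and their log2 differences rest on values not above background.

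Other members hardly moved between the replicates. The gene atpB differed by -0.25, psaB by -0.32 and rpoA by -0.27 on the log2 scale. Of the 5 members that were higher on replicate 2 in both sugars, psbK had the largest difference, 0.57, followed by atpA with 0.55, psbI with 0.48, clpP with 0.24 and rps3 with 0.14. None of these passed the test.

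Some genes that lie next to each other differed widely in this respect. The run psaC, ndhE, ndhG, ndhI, ndhA, ndhH and rps15 had differences of -5.05, -4.14, -3.86, -0.11, 0.10, -3.08 and -3.43. The genes ndhI and ndhA, which were nearly level, stood between genes that had fallen. In the run psbB, psbT, psbN, psbH, petB and petD, which encodes photosystem II and cytochrome b6f proteins, the differences were -4.59, -1.85, -3.84, -1.20, -0.52 and -3.39. In the run psbD, psbC and psbZ they were -3.16, -2.94 and -0.27, so the last gene again stood apart from its neighbours. Over the 68 neighbouring pairs of members in the gene order of TAIR10.1, the correlation of these differences was 0.03, and 23 pairs differed by over 2 log2 units. The same probe sets moved alike in both sugars, with a correlation of 0.76 across members and of 0.87 without psaA. Both correlations are descriptions across genes measured on the same 4 arrays.

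**Figure D3:**
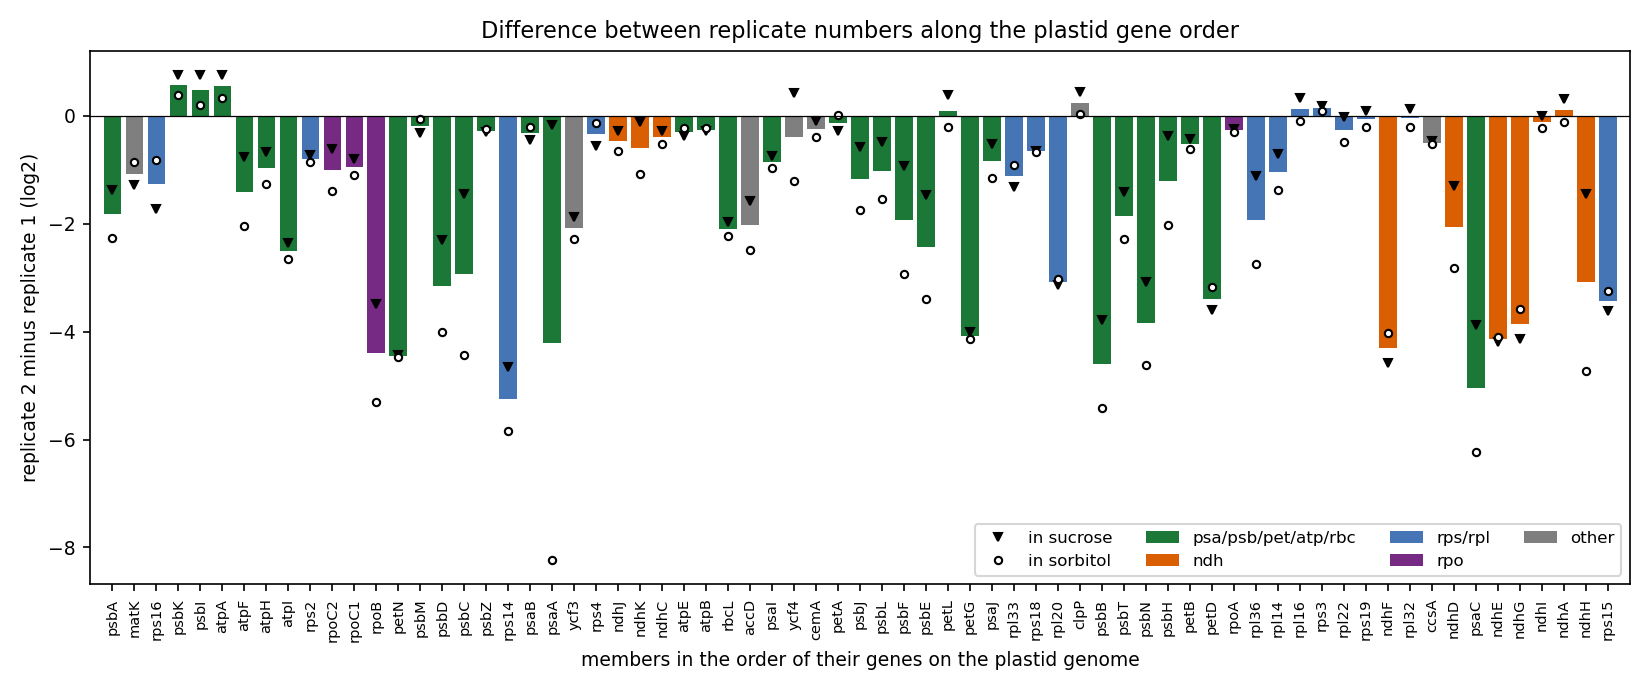
Difference of replicate 2 minus replicate 1 on the log2 scale (vertical axis) for each plastid-encoded gene, placed by gene order on the plastid genome (horizontal axis) and coloured by class. Steep drops stand beside values near 0 at several places, with 23 of 68 neighbouring pairs over 2 log2 units apart, while runs such as rps4 to atpB are nearly level.

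The change with sucrose is also given apart for members that did and did not pass the test between replicate numbers. The 43 that did not had a median change of -0.48, with -0.66 within replicate 1 and -0.37 within replicate 2, and 33 of 43 were lower in sucrose on both. The 26 that passed had a median of -0.18, with -0.60 within replicate 1 and 0.33 within replicate 2, and 10 of 26 were lower on both. Within the 43, the class medians were -0.29 for 19 photosynthesis genes, -0.56 for 5 NDH genes, -0.61 for 11 ribosomal genes and -0.56 for 3 polymerase genes. This division used the arrays themselves and is given without a test.

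Nuclear genes of the same complexes were measured for 5 of 33 listed subunits of the photosystems, cytochrome b6f complex, ATP synthase and rubisco, 3 of 17 of the NDH complex and 9 of 33 plastid ribosomal proteins. All 17 had lower values in sucrose on both replicates, against 34.9% of all tested, and 1 passed the limma test. The first 5 had a median change of -0.94, and 1 of them was called lower, against 0.923% of all tested, with 3 of 5 called lower when the fit had the replicate term, against 8.84%. The 1 called without that term was PSAN, a photosystem I subunit, at 776.5 and 438.1 in sucrose, against 2801.4 and 2797.9 in sorbitol. The change was -2.26 ± 0.36 (SE, limma adjusted p = 0.0497), just under the threshold of 0.05. The 3 measured nuclear subunits of the NDH complex had a median change of -2.46, where the plastid-encoded NDH genes had -0.42. By limma 0 of 3 were called, though all 3 had an unadjusted p under 0.05, against 20.7% of all tested. With the replicate term 3 of 3 were called lower, against 8.84%. NDHN read 153.3 and 71.7 in sucrose, against 452.5 and 780.6 in sorbitol, a change of -2.50 ± 0.48 (SE) with a limma adjusted p of 0.0645. NDHS, the subunit thought to hold the ferredoxin-binding site, read 479.6 and 471.2 in sucrose, against 1118.5 and 1578.9 in sorbitol, with a change of -1.48 ± 0.31 (SE). In neither gene did the groups overlap.

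The 9 measured nuclear genes of plastid ribosomal proteins were lower in sucrose on both replicates, with a median change of -1.12. By limma 0 of 9 were called, and 6 of 9 had an unadjusted p under 0.05, against 20.7% of all tested. With the replicate term 6 of 9 were called lower, against 8.84% of all tested. Of the genes for sigma factors and nuclear-encoded polymerases RPOTMP was the 1 of 8 with a single-gene probe set in the annotation used, and it was too dim to be tested. That annotation listed no gene for 8730 probe sets. In nuclear genes of these complexes the change was larger within replicate 2, at -1.18 for photosystem and ATP synthase subunits, -3.38 for NDH subunits and -1.65 for ribosomal proteins, than within replicate 1, at -0.72, -1.53 and -0.61. Over all plastid-encoded members the median was -0.28 within replicate 2 and -0.65 within replicate 1. The median of the rps genes, at -0.92 and -0.73, and that of the pet genes, at -0.31 and -0.26, were also larger within replicate 2. Single genes of these prefixes went either way. The changes within replicate 2 and replicate 1 were -0.28 and -0.87 in petL, but -0.55 and -0.12 in petD. None of the 17 nuclear genes passed the test between replicate numbers, against 1.25% of all tested that were lower and 1.65% that were higher. With shares so small, 17 genes are too few to read this as a trait of theirs. The difference between the genomes was not tested.

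**Figure D4:**
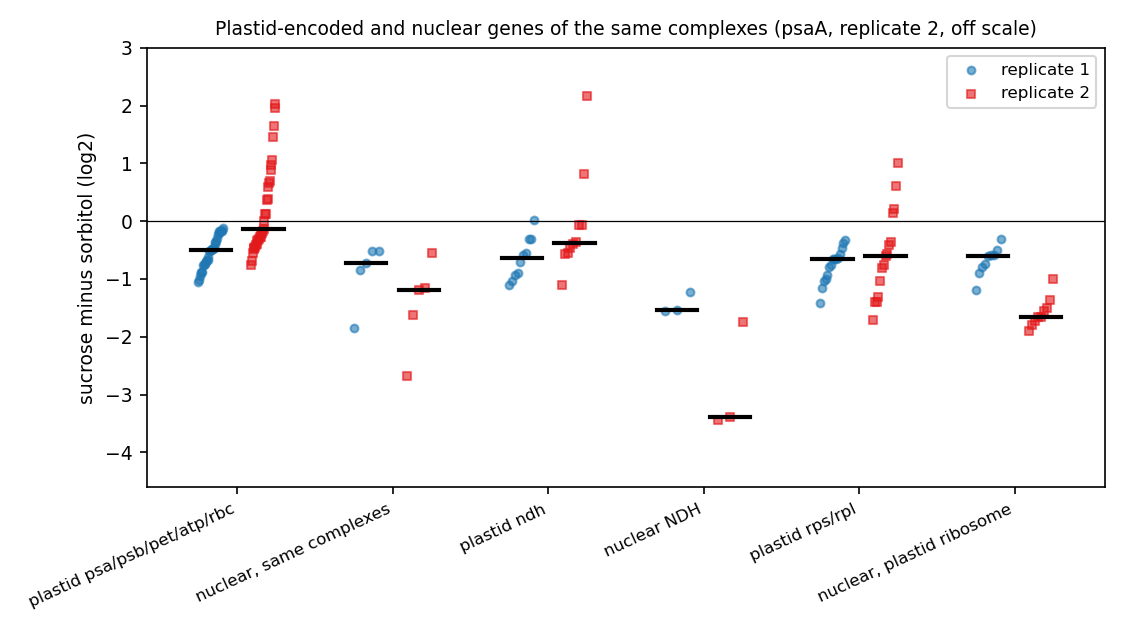
Log2 change with sucrose within each replicate number (vertical axis) for plastid-encoded classes and for the nuclear genes of the same complexes (horizontal axis), with a point per gene and replicate. The nuclear genes lie below 0 in both replicates, whereas plastid-encoded photosynthesis genes spread on both sides of 0 in replicate 2.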

How the data were processed

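The deposited intensity values came from MAS5, per the submitters' processing notes, and its version was not given in the sources used here. The deposited table gave a linear intensity on every array for 22810 probe sets. These deposited values were floored at 0.1, put on a log2 scale and normalised no further. The 64 control probe sets were left out. The 13648 probe sets at or above the 40th percentile of mean log2 intensity were tested, a cut-off of 18.6 on the linear intensity scale. Limma 3.58.1 in R 4.3.3 (lmFit, eBayes with trend) compared the groups, with Benjamini-Hochberg adjustment over all tested at 0.05. A second fit added the replicate number. Figures used matplotlib 3.10.9. Of 13513 single-gene probe sets, 13436 matched TAIR10.1 by gene number. That table gave names and gene order alone, since the array's build was not stated. Array number and dim signals limit the precision.

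The members and lists were chosen with earlier results of these data known. Named with values on every array are the 23 members given by fixed symbols and by the extremes of each class. These extremes were the highest and lowest change of 1 sign in both replicates, and the widest gap between the within-replicate changes. Others are shown as examples chosen after their values were seen. Over the probe sets tested, same-numbered arrays deviated together from their group means (r = 0.43). Alternatives were other filters, a pseudocount of 5.3, quantile normalisation, median centring, no trend, raised low values and each array left out.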

Additional observations from a re-analysis of the deposited data

How the results depend on the processing

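The counts over all probe sets tested, 50 higher and 126 lower, became 1 and 2 with no filter, 83 higher at the 60th percentile, 21 and 71 with quantile normalisation, 196 lower with median centring, 26 and 77 without the trend, and 0 to 407 and 0 to 548 with each array left out. With the replicate number as a block they became 1130 and 1206, and the members' counts of 0 and 0 became 1 higher and 6 lower. With an array left out the members' counts were 0 to 1 in each direction, where a lone array is assumed to vary like the other group. The labels do not say that the number pairs the arrays. The 26 members lower on replicate 2 became 7 with no filter and 0 by replicate number alone.

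Class medians ranged, with each array left out, from -1.05 to 0.23 for all members, -0.94 to 0.71 for photosynthesis, -1.22 to 0.52 for NDH, -1.19 to -0.39 for ribosomal, -1.28 to -0.044 for polymerase and -0.74 to 0.035 for other genes. The ribosomal median was -0.45 with quantile normalisation, -0.67 with median centring and -0.47 centred on all members. Averaging a gene's probe sets alters nothing, since each gene had 1.

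The sugar change turned sign with quantile normalisation in ndhC (0.033), cemA (0.15), psaB (0.091) and atpB (0.094), and in rpoB with the pseudocount (-0.035) and raised low values (-0.32). The replicate difference turned in rps19 (0.015 with quantile normalisation, 0.080 with centring) and atpB (0.033 with quantile normalisation). With an array left out the sugar change ranged over both signs in petN (-2.39 to 2.08), rbcL (-2.0 to 0.23), psaA (-0.25 to 7.98), ndhC (-0.44 to 0.073), ndhG (-2.90 to 1.25), ndhH (-1.83 to 2.89), rpl36 (-1.19 to 1.56), rpoB (-2.46 to 1.95), cemA (-0.36 to 0.035), ycf4 (-0.25 to 0.96), psbA (-0.98 to 1.28) and accD (-1.63 to 0.85). The causes were not tested. Dim values on replicate 2 limit petN, ndhG, rpoB and rps14.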

Other observations

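Genes of the plastid inverted repeat and of trans-spliced rps12, which share probe sets between copies, were measured by 8 further probe sets. All 8 were lower in sucrose on replicate 1 and 5 of 8 on replicate 2, with a median change of -0.38. The probe set of rps7, a small-subunit protein gene, read 3628.7 and 3678.0 in sucrose, against 4633.2 and 4276.8 in sorbitol. That of rpl2, of the large subunit, read 3237.4 and 3449.9 in sucrose, against 4104.9 and 3236.1 in sorbitol. That of ycf2, whose product belongs to a protein import motor, read 133.9 and 8.9 in sucrose, against 232.2 and 8.9 in sorbitol. That of ndhB read 204.4 and 19.0 in sucrose, against 338.5 and 24.5 in sorbitol. On replicate 2 ndhB was lower by a log2 difference of -3.61, and ycf2 lay below the highest Bacillus control, so no size is given for it.

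Genes of the other organelle genome are given for comparison, with no test of the difference. Of the mitochondrion-encoded genes, 9 probe sets matched by symbol were tested, several of them for the same gene, nad1. The median change of the 9 was 0.73, with -0.03 within replicate 1 and 1.48 within replicate 2. On replicate 2, 9 of 9 were higher in sucrose, against 6884 of the 13648 probe sets tested. Some values on sorbitol 2 were dim, and nad4L, at 6.6, lay below the highest Bacillus control. None was called by limma, 2 of 9 had an unadjusted p under 0.05, against 20.7% of all tested, and with the replicate term 2 of 9 were called higher, against 8.28%. The NADH dehydrogenase gene nad6 read 37.6 and 135.7 in sucrose, against 32.9 and 12.8 in sorbitol. The cytochrome oxidase gene cox1 read 99.7 and 121.7 in sucrose, against 172.1 and 51.4 in sorbitol. None of the 9 passed the test between replicate numbers, against 1.25% of all tested that were lower and 1.65% that were higher. That test averages the sugars, where the 9 moved apart. Their median difference of replicate 2 minus replicate 1 was 0.87 in sucrose and -1.36 in sorbitol.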
